A study of Mus musculus with 13 samples.

Results

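Control brain tissue of 2 mouse glioma models was compared: 3 arrays labelled Nestin-creERT2 driven control, called Nestin control here, and 3 arrays labelled NG2creERTM driven control, called NG2 control. These 6 arrays were all the control arrays among the 13 arrays of the series, and they were chosen by their labels alone. The other arrays carried tumors of the same models and entered only the shared estimate of the spread. Per the design text, control tissue was taken from control mice at the anatomical position that matched the tumors of each model. The position itself is not named, so the comparison sets apart the 2 models, their mice and whatever brain position each control piece came from, and these cannot be told apart.

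The 2 models differ in what drives Cre, the recombinase that removes floxed DNA. The driver of Nestin-creERT2 is taken from the nestin gene, whose filament protein is made in stem and progenitor cells of the nervous system. That of NG2-creERTM is taken from the gene of the proteoglycan NG2, found on the surface of oligodendrocyte progenitors and of pericytes. Both are forms of Cre that tamoxifen activates. The labels state neither the floxed alleles nor whether the control mice carried Cre or received tamoxifen. Nor do they give strain, sex or age. The labels call the controls biological replicates, and each was counted as 1 sample. Whether each came from a separate animal is not stated, and if some did not, the p-values understate the spread between animals. The levels of Xist given below differed within each group, so the arrays of a group did not all come from 1 animal.

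Brain regions differ in the neurons they hold, and a piece of tissue carries the RNA of its region. The olfactory bulb, at the front of the mouse brain, receives the axons of the olfactory sensory neurons of the nose. Its mitral and tufted cells send the output to the cortex, and its granule and periglomerular interneurons are replaced through life by neuroblasts that migrate in from the ventricular wall. The cerebral cortex is instead built around glutamatergic projection neurons that depend on transcription factors such as Tbr1 and Fezf2, and tracts of myelin run beneath it. In bulk tissue, fewer cells of a type and less RNA per cell cannot be told apart.

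The median raw signal was 130.4 ± 10.3 in Nestin control and 127.7 ± 10.8 in NG2 control (SD, n = 3 each; exact two-sided permutation p = 0.8, where 0.1 is the smallest that 20 splits allow). The share of probes detected was 45.23% ± 0.721 in Nestin control and 45.98% ± 1.39 in NG2 control (SD, n = 3 each; exact two-sided permutation p = 0.6). With 0.1 as the smallest p, these tests could not have reached 0.05. Log2 levels of all genes correlated at 0.9816 to 0.9832 among Nestin controls, at 0.9732 to 0.9796 among NG2 controls and at 0.9473 to 0.9645 between the groups. The first principal component of the 6 arrays held 52.8% of the variance and parted the groups. Replicate 2 of each group was the array with a high level of Xist, the RNA of the inactive X chromosome (9.98 in Nestin control 2 and 10.26 in NG2 control 2, against 4.53 to 4.65 on the other arrays), so each group held 1 such array of 3. Nestin controls 1 and 2 were on slide 1, NG2 controls 1 and 2 on slide 2, and the third replicate of both groups on slide 3.

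Of 11927 genes tested, 414 (3.47%) passed the threshold of 0.05 on the adjusted p. Levels are log2 intensities after background correction and quantile normalization, and differences are Nestin control minus NG2 control with the standard error (SE) of a limma fit, so that 1 unit is a 2-fold difference. The called genes split evenly, with 202 (1.69%) higher and 212 (1.78%) lower in Nestin control. The lower ones reached further: the largest deficit was -6.18 and the largest excess 4.31. A difference of 2-fold or more was measured for 361 called genes (3.03%), 172 of them higher and 189 lower in Nestin control, and 106 called genes differed 4-fold or more. The arrays of the 2 groups did not overlap for any of the 414, and they did not overlap for 2926 (24.5%) of all genes. Detection on 3 or more of the 13 arrays was required for a test. For 495 genes, 94 of them called, this was not met without the arrays of 1 of the control groups. Some, such as Cd3e (adjusted p = 0.779), needed arrays of both groups and did not have to differ. For those detected in 1 group alone the filter favoured a difference, so calls and p-values of the 495 genes are descriptions. Without them 320 of 11432 genes were called. The median difference of all genes was 0.00243, near the 0 at which quantile normalization holds it. With 1 control array left out, fewer genes passed: 242 without Nestin control 1, 234 without Nestin control 2, 209 without Nestin control 3, 242 without NG2 control 1, 257 without NG2 control 2 and 187 without NG2 control 3.

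**Figure D1:**
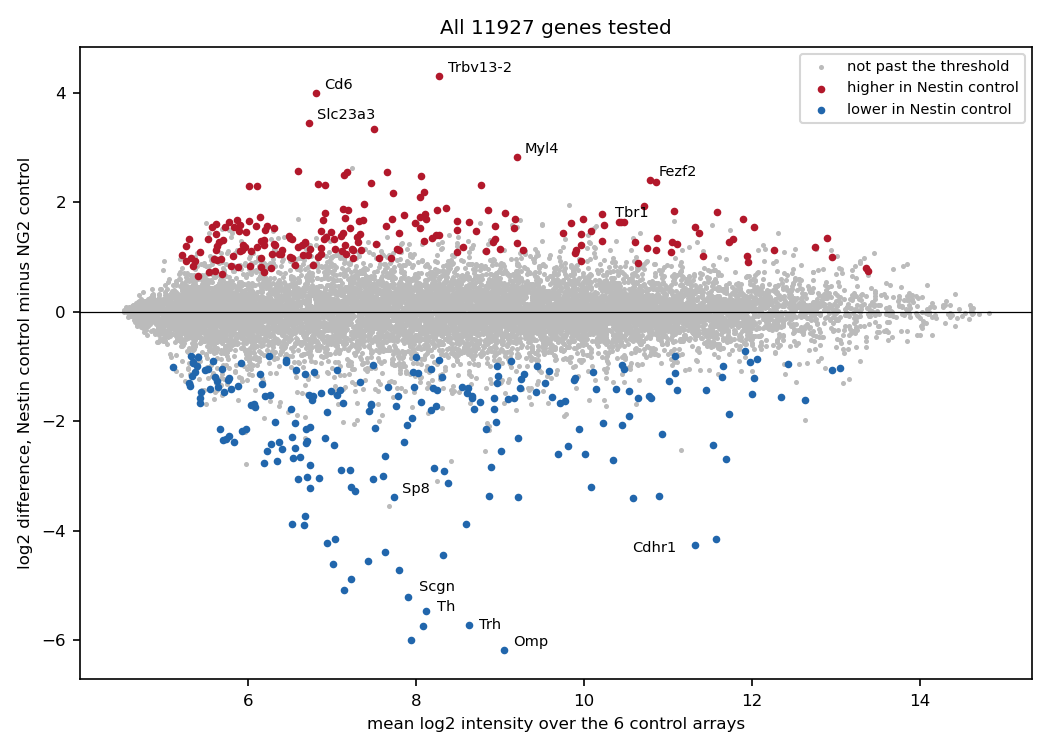
Difference of each of the 11927 genes tested (y axis, log2, Nestin control minus NG2 control) against its mean log2 intensity over the 6 control arrays (x axis). Red points are the 202 genes called higher and blue points the 212 called lower in Nestin control, and the lower ones reach -6.18 at Omp while the higher ones end at 4.31 at Trbv13-2.

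Genes of the olfactory system were prominent among the largest deficits in Nestin control. Omp encodes the olfactory marker protein of mature olfactory sensory neurons. Its level was 5.45, 5.96 and 6.48 on the Nestin control arrays, against 12.25, 11.78 and 12.41 on the NG2 control arrays. Every NG2 control array was thus far above every Nestin control array, and the difference was -6.18 ± 0.42 (SE, n = 3 each; adjusted p = 8.26e-07), a 72.6-fold lower level in Nestin control. This is the probe of Omp with the highest mean, and the mean of its probes gave -3.15 (limma, adjusted p = 2.59e-05). S100a5, an S100 calcium-binding protein known from olfactory sensory neurons of the mouse, was well above background on no Nestin control array (4.87 to 5.08) and read 10.30, 10.55 and 11.98 in NG2 control. It was at least 46.2-fold lower in Nestin control (adjusted p = 2.09e-07). Such a bound sets the brighter group's mean against the lowest level detected on each array of the dim group. S100a5 passed the detection filter only through NG2 control, so its p is a description.

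Among 14 measured marker genes of olfactory bulb neurons, 11 were lower and 0 higher in Nestin control (78.6%, against 3.47% of all genes). All 14 differences were negative. Their median difference was -2.77, against 0.00243 over all genes, and it was -2.61 with the 3 genes not above background in Nestin control (Doc2g, Tbx21 and Eomes) set at their bounds. The list's summed level, as log2 of the summed linear intensities, was 13.55, 13.65 and 13.19 in Nestin control and 15.90, 15.55 and 15.87 in NG2 control. The sums did not overlap. Doc2g, Tbx21, Eomes and Th passed the detection filter only through NG2 control and are no support for the count, which was 7 of 10 without them. The count was 7 of 12 measured genes without NG2 control 3 and 8 of 14 with slide as a block. Those counts hold such genes as well: Doc2g and Th in the first, and Doc2g, Tbx21, Eomes and Th in the second. The others were Calb2, Sp8, Tshz1 and Nmb in both, with Tpbg in the first.

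Markers of the bulb's output neurons were low in Nestin control. Doc2g, a C2 domain protein of mitral and tufted cells, read 5.08, 5.11 and 5.46 in Nestin control and 10.83, 11.14 and 10.88 in NG2 control, at least 46.3-fold lower (adjusted p = 4.84e-09). Tbx21 and Eomes, T-box transcription factors of mitral and tufted cells in the mouse, were well above background on all 3 NG2 control arrays and on 0 of 3 Nestin control arrays. They were at least 4.44-fold and at least 2.74-fold lower (adjusted p = 7.53e-06 and 4.65e-06). Cdhr1, a cadherin of photoreceptors that also marks mitral and tufted cells, was the member that varied most within a group. It read 10.16, 10.41 and 7.01 in Nestin control and 13.83, 13.10 and 13.43 in NG2 control, so that Nestin control 3 stood well below its group. Its difference was -4.26 ± 0.87 (SE; adjusted p = 0.0133), and it missed the threshold without Nestin control 3 (-3.16; adjusted p = 0.0604), without NG2 control 1 (-4.08; 0.0696) and without NG2 control 3 (-4.27; 0.0662).

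Markers of periglomerular and granule interneurons followed the same direction. Th, tyrosine hydroxylase, the first enzyme of dopamine synthesis and a marker of dopaminergic periglomerular cells, read 4.95, 5.39 and 5.84 in Nestin control and 10.91, 10.65 and 11.01 in NG2 control. All NG2 controls were far above all Nestin controls, and the difference was -5.46 ± 0.23 (SE; adjusted p = 6.22e-09), 44.0-fold lower in Nestin control. The difference was smaller, at -3.47, without background correction. Scgn, the calcium sensor secretagogin, differed by -5.21 ± 0.21 (SE; adjusted p = 4.84e-09). Calb2, the calcium buffer calretinin, which marks another class of periglomerular cells, read 9.82, 9.16 and 9.53 in Nestin control and 13.77, 13.58 and 13.61 in NG2 control. It was thus high in NG2 control and still well above background in Nestin control, with a difference of -4.15 ± 0.45 (SE; adjusted p = 7.85e-05). Sp8, a zinc-finger transcription factor of bulb interneurons, differed by -3.38 ± 0.23 and Tshz1, a transcription factor of granule cells, by -2.43 ± 0.20 (SE; adjusted p = 6.67e-07 and 4.49e-06). Tpbg, the membrane glycoprotein trophoblast glycoprotein, differed by -2.03 ± 0.35 and Nmb, the peptide neuromedin B, by -3.05 ± 0.28 (SE; adjusted p = 0.00416 and 1.68e-05).

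Meis2, a homeodomain transcription factor of bulb interneurons and of the striatum, differed by -1.50 ± 0.34 (SE; adjusted p = 0.0262). Its levels were 11.19, 11.52 and 11.03 in Nestin control and 12.28, 12.49 and 13.48 in NG2 control, and it kept the call only where NG2 control 1 was the array left out. Without the others the difference ran from -1.64 without Nestin control 2, over -1.62 without NG2 control 2, -1.47 without Nestin control 1 and -1.39 without Nestin control 3, to -1.14 without NG2 control 3. Members of the list that did not pass included Shisa3 at -2.78 (adjusted p = 0.209) and Reln, the secreted protein reelin, at -0.96 (0.109), with the arrays of the groups apart in both. A limma fit to the 6 control arrays alone gave -2.32 for Shisa3 (adjusted p = 8.29e-06) and -1.03 for Reln (0.00683). With slide as a block in all arrays, both missed the threshold (limma, adjusted p = 0.645 and 0.439).

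The promoter of Th is shown because the gene was among the 15 with the largest deficits in Nestin control. The 250 bases before the RefSeq start of Th lie at chr7:142899996-142900245 on the minus strand of GRCm38.p6. Capitals mark a cAMP response element, TGACGTCA, whose first base lies 45 bases before the start, and a Sp1 GC box, GGGCGG, at 220 bases.
Th: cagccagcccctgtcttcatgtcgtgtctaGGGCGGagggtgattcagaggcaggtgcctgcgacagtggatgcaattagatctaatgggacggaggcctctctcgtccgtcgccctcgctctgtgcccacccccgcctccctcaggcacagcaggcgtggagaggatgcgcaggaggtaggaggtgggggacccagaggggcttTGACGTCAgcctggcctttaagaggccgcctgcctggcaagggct
The cAMP response element was found in 1.55% of all 32851 RefSeq promoter windows of this length. It was in 0.939% of 213 windows of genes called higher and in 0.962% of 208 windows of genes called lower in Nestin control. The match describes these letters only.

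Other markers of olfactory axons and of the glia around them were measured in a list of 8 genes. Of these, 3 were lower and 0 higher in Nestin control (37.5%, against 3.47% of all genes): Omp, Frzb and Prss56. The list median was -0.69, and -0.61 with genes not above background at their bounds. Prss56 passed the detection filter only through NG2 control, and without it the count was 2 of 7. Frzb, a secreted Wnt antagonist, differed by -2.03 ± 0.43 (SE; adjusted p = 0.0164). It missed the threshold without Nestin control 2 (-2.08), Nestin control 3 (-1.83), NG2 control 1 (-1.94) or NG2 control 3 (-1.84). Prss56, a serine protease, was well above background on 0 of 3 Nestin control and 3 of 3 NG2 control arrays and at least 1.8-fold lower (adjusted p = 0.00788). It missed the threshold without NG2 control 3 (fitted difference -1.40). With slide as a block, Omp alone of this list remained past the threshold.

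Among genes of neuroblasts and immature neurons, 4 of 18 measured were lower and 0 higher in Nestin control (22.2%, against 3.47% of all genes). Sp9 among them passed the detection filter only through NG2 control, and the count was 3 of 16 without such genes. Of all 18, 15 differences were negative, and the median was -1.14. The list's summed level was 14.64, 14.62 and 14.42 in Nestin control and 15.20, 15.02 and 15.15 in NG2 control, again without overlap. Dlx2, a homeodomain factor of developing GABAergic neurons, read 5.67, 5.44 and 6.30 in Nestin control and 8.0, 8.13 and 8.57 in NG2 control, a difference of -2.43 ± 0.36 (SE; adjusted p = 0.00144). Sp9, a zinc-finger factor related to Sp8, differed by -2.39 ± 0.19, and Sox4, an HMG-box factor of young neurons, by -1.78 ± 0.30 (SE; adjusted p = 3.67e-06 and 0.00392). Sp8, described above, was the remaining called member. Dcx, the microtubule protein doublecortin that marks migrating neuroblasts, did not pass. Its levels were 9.09, 8.83 and 8.28 in Nestin control and 10.83, 10.08 and 10.30 in NG2 control, without overlap, at -1.67 ± 0.75 (SE; adjusted p = 0.347). Dlx1 (-2.52; adjusted p = 0.123), Dlx6 (-1.85; 0.0881), Igfbpl1 (-1.63; 0.137) and Sox11 (-1.21; 0.176) did not pass either. In a fit to the 6 control arrays alone, 10 of 17 measured genes passed, Dlx1 and Dlx6 among them. With slide as a block 2 of 18 passed (Sp8 and Sp9).

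**Figure D2:**
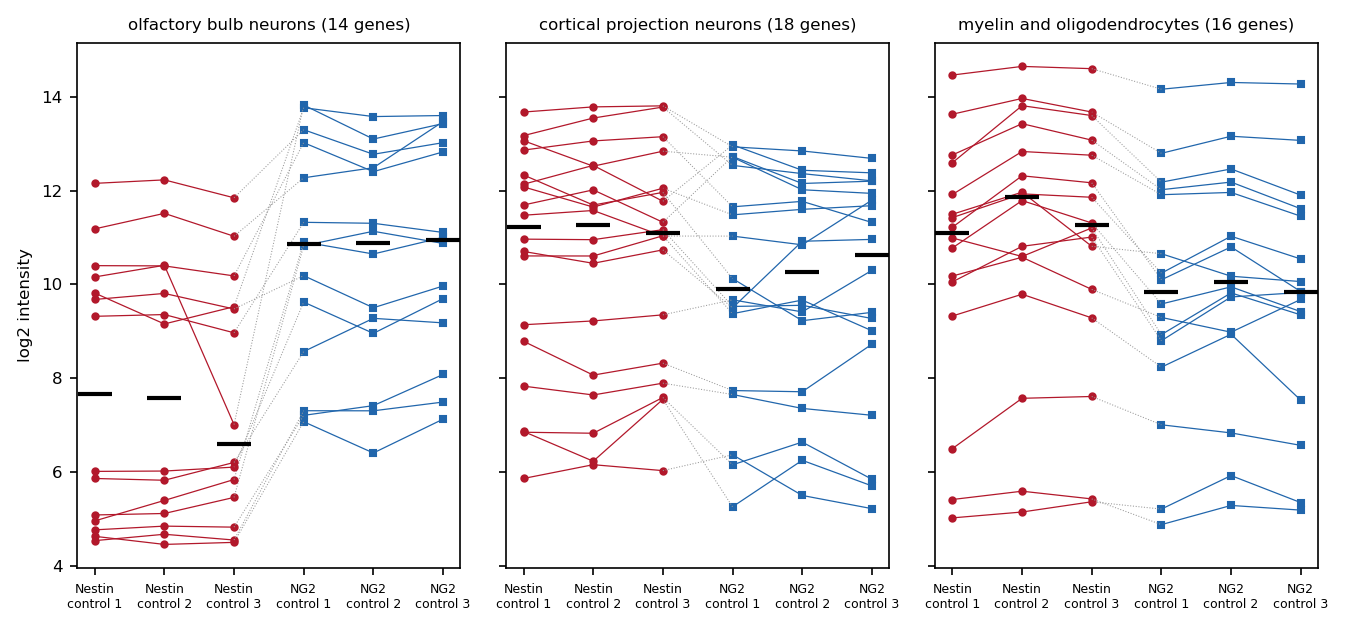
Log2 intensity (y axis) of each measured gene of 3 lists on the 6 control arrays (x axis), Nestin control in red and NG2 control in blue. Each line is a gene, dotted between the groups, and black bars are the median of the list on an array: olfactory bulb genes sit lower and myelin genes higher in Nestin control, while cortical genes overlap in part.

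Markers of other GABAergic neurons did not move as a block. Of 13 measured genes of GABA synthesis and interneurons, 2 were lower (Calb2 and Gad1) and 1 was higher (Maf) in Nestin control. This was 23.1%, against 3.47% of all genes, and the median of the list was 0.08. Gad1, glutamate decarboxylase, read 11.85, 11.84 and 11.80 in Nestin control and 13.43, 13.08 and 13.81 in NG2 control, a difference of -1.61 ± 0.35 (SE; adjusted p = 0.0193). Gad1 kept the call only where NG2 control 2 was the array left out, and without the others its difference ran from -1.62 (Nestin control 1), -1.61 (Nestin control 2 and NG2 control 1) and -1.59 (Nestin control 3) to -1.42 (NG2 control 3). Gad2, the other glutamate decarboxylase, and Slc32a1, the vesicular GABA transporter, were at -1.13 (adjusted p = 0.478) and -0.91 (0.66), with groups that did not overlap. Maf, a transcription factor of cortical interneurons, differed by 1.29 ± 0.25 (SE; adjusted p = 0.00826), and missed the threshold without NG2 control 1 (1.17) and without Nestin control 3 (1.12). Pvalb, the calcium buffer parvalbumin of fast-spiking interneurons, was at 1.59 (adjusted p = 0.266). Its levels of 12.62, 11.87 and 12.46 in Nestin control all lay above those of 10.20, 11.13 and 10.87 in NG2 control. Sst, the peptide somatostatin, was at 0.67 (adjusted p = 0.459) with overlapping groups.

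Cortical projection neuron genes gave the opposite sign. Of 18 measured, 2 were higher and 0 lower in Nestin control (11.1%, against 3.47% of all genes). Of the differences, 15 were positive and 3 negative, down to -0.68, and the median was 0.48. Fezf2, a zinc-finger factor of deep-layer neurons that project below the cortex, read 12.34, 11.70 and 11.97 in Nestin control and 10.13, 9.23 and 9.41 in NG2 control. All Nestin controls were above all NG2 controls, by 2.41 ± 0.42 (SE; adjusted p = 0.00459), a 5.33-fold higher level. Tbr1, a T-box factor of early-born cortical neurons, read 10.97, 10.96 and 11.17 in Nestin control and 9.53, 9.56 and 9.27 in NG2 control, a difference of 1.58 ± 0.24 (SE; adjusted p = 0.00167). Its replicates lay close together in both groups, with SDs of 0.12 in Nestin control and 0.16 in NG2 control. Members that did not pass included Nrn1, the surface protein neuritin, at 1.44 (adjusted p = 0.435), Neurod2, a basic helix-loop-helix factor, at 1.40 (0.284), Lamp5 at 1.13 (0.397) and Slc17a7, the vesicular glutamate transporter, at 0.34 (0.93). Emx1, a homeodomain factor of the dorsal forebrain, was at 1.14 (0.0568) and passed without Nestin control 2 (1.48) and without NG2 control 2 (1.42). Emx1 passed the detection filter only through Nestin control, so its p-values are descriptions. The count of the list was 2 of 16 without such genes. With slide as a block, 0 of 18 passed, with differences of 2.96 for Fezf2 and 1.83 for Tbr1. The 6 control arrays alone gave 6 of 18.

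The promoter of Tbr1 is shown beside that of Th as a gene with the opposite sign. The 250 bases before the RefSeq start of Tbr1 lie at chr2:61804203-61804452 on the plus strand of GRCm38.p6. Capitals mark 2 homeodomain motifs, TAATTA, at 33 and 18 bases before the start, and a GC box on the other strand at 246 bases.
Tbr1: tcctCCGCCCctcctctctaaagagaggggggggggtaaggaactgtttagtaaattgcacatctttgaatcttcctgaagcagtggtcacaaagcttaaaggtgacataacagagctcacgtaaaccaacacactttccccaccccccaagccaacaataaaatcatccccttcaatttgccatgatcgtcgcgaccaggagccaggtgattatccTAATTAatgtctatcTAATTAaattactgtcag
The homeodomain motif was in 4.84% of all promoter windows, in 2.82% of those of genes higher and in 2.88% of those of genes lower in Nestin control. The GC box was in 32.7% of all windows, in 49.3% of those of the higher genes and in 46.6% of those of the lower genes. The shares in the higher and the lower genes were thus close to each other for both motifs, and the same held for the TATA box, TATAAA (9.86% and 10.1%, with 12.4% of all windows), and a T-box motif, AGGTGTGA (1.88% and 1.92%, with 1.12% of all windows). An Ebf site (TCCC and GGGA with any 2 bases between) was in 1.41% of windows of higher genes, 0.481% of lower genes and 0.779% of all windows. Both strands were searched and each motif was counted on its own, so that matches of different motifs may overlap.

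Other forebrain regions gave few calls. In a list of 9 hippocampal genes 1 passed (11.1%, against 3.47% of all genes). Prox1, a homeodomain factor of dentate granule cells, read 8.03, 8.36 and 7.83 in Nestin control and 6.51, 6.15 and 5.91 in NG2 control, a difference of 1.88 ± 0.42 (SE; adjusted p = 0.0242). Prox1 missed the threshold whichever of the 6 arrays was left out: 1.91 and 1.75 without Nestin controls 1 and 2, 2.01 without Nestin control 3, 2.06 and 1.87 without NG2 controls 1 and 2, and 1.75 without NG2 control 3. Fibcd1, a marker of CA1 neurons, was at -1.87 (adjusted p = 0.181), and the median of the list was -0.22. Of 17 measured genes of striatal projection neurons 0 passed at a median of 0.20. Their summed level overlapped, at 14.93 to 15.93 in Nestin control and 14.42 to 15.82 in NG2 control. The general neuron list, with 14 measured genes, had 0 calls, a median of 0.21 and summed levels of 17.08 to 17.12 in Nestin control and 17.03 to 17.09 in NG2 control.

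The called genes of the hypothalamic list were lower in Nestin control. Trh, the precursor of thyrotropin-releasing hormone, read 5.88, 5.55 and 5.88 in Nestin control and 11.21, 11.51 and 11.75 in NG2 control. The replicates of each group lay close together, and the difference was -5.72 ± 0.96 (SE; adjusted p = 0.00357), 52.7-fold lower in Nestin control. Gal, the peptide galanin, was well above background on 0 of 3 Nestin control arrays and at least 9.19-fold lower (adjusted p = 0.00667). Hap1, a partner of huntingtin, differed by -1.56 ± 0.31 (SE; adjusted p = 0.0121), and missed the threshold without NG2 control 1 (-1.46) and Nestin control 3 (-1.39). These 3 were the called members among 6 measured hypothalamic genes (50%, against 3.47% of all genes). Cartpt, the peptide precursor CART, was at -3.09 (adjusted p = 0.0568) with 7.96 on NG2 control 1 beside 11.14 and 10.28 on the other NG2 controls. It passed without NG2 control 1 (-4.01; adjusted p = 0.0165). Trh and Gal also belonged to a list of 19 neuropeptides, of which 4 were lower (with Nmb and Nxph4) and 1 was higher (26.3% called). Nxph4 passed the detection filter only through NG2 control, and the count was 4 of 17 without such genes. The higher one was Grp, gastrin-releasing peptide, which was well above background on 3 of 3 Nestin control and 0 of 3 NG2 control arrays and at least 3.7-fold higher (adjusted p = 0.00102). With slide as a block 0 of the 6 hypothalamic genes passed, and of the neuropeptides Nmb alone did.

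Slc6a3, the dopamine transporter, was the 1 called gene of 13 in a list for thalamus, midbrain and hindbrain (7.69%, against 3.47% of all genes). It was well above background on 0 of 3 Nestin control arrays (4.70 to 4.90) and read 8.48, 8.08 and 9.07 in NG2 control, at least 8.74-fold lower in Nestin control (adjusted p = 4.84e-07). The call held without each Nestin control array in turn (-3.78 to -3.69) and with slide as a block. With an NG2 control array left out, Slc6a3 was detected on too few arrays to be tested, as were S100a5, Ms4a15, Bpifb9a, Tbx21 and Eomes. All 6 passed the detection filter only through NG2 control, so their p-values are descriptions. Without such genes the thalamus, midbrain and hindbrain list had 0 calls among 11 genes. Of 3 measured cerebellar genes (33.3% called), Cbln1, a synaptic organizer of granule cells, differed by -2.45 ± 0.50 (SE; adjusted p = 0.0136). It missed the threshold without Nestin control 2 (-2.40), Nestin control 3 (-2.44), NG2 control 1 (-2.32) or NG2 control 3 (-2.48). Zic1, a zinc-finger factor of the same list, was at -2.72 (adjusted p = 0.0914).

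**Figure D3:**
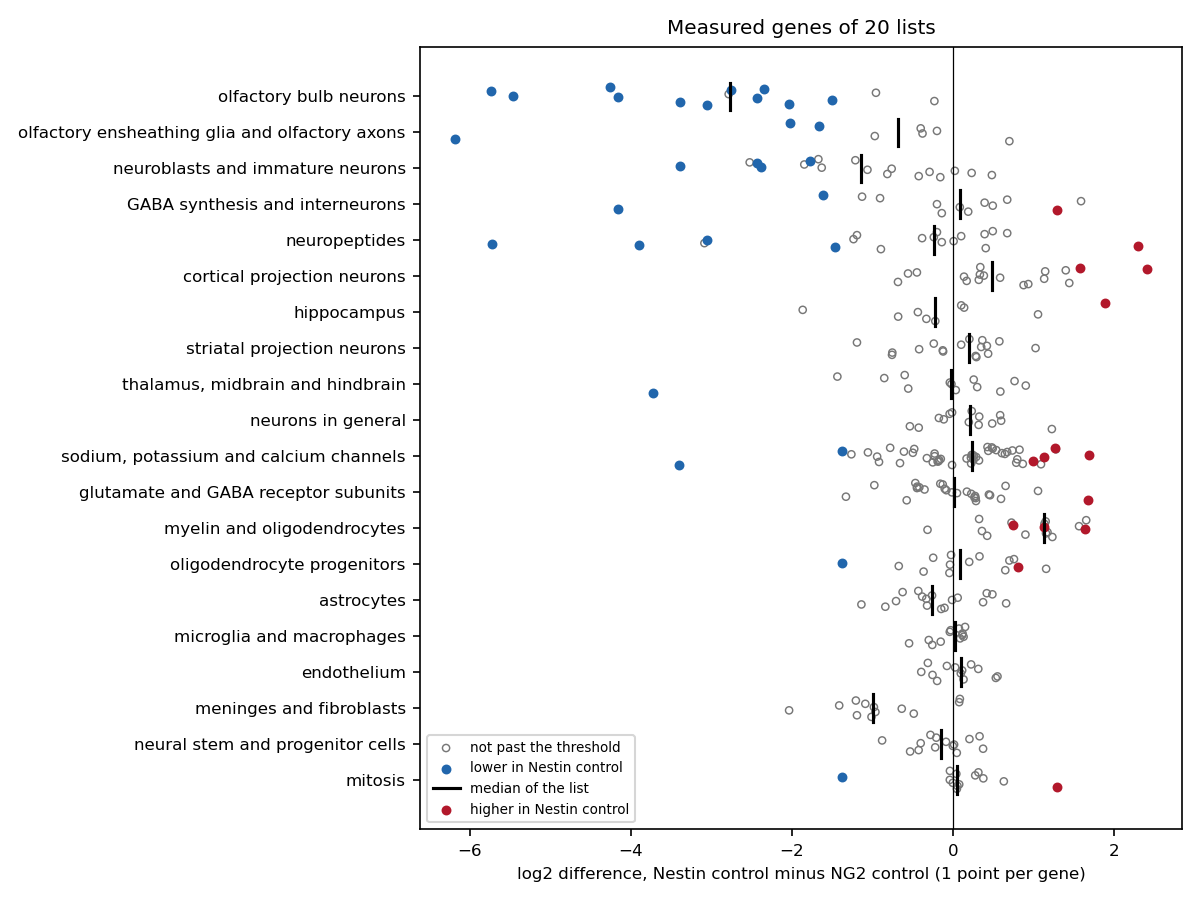
Difference of each measured gene in 20 lists (x axis, log2, Nestin control minus NG2 control), 1 point per gene, with the median of each list as a black bar. Filled points passed the threshold (red higher, blue lower in Nestin control), and 3.47% of all genes did. In the olfactory bulb list 11 of 14 are filled in blue, and 7 of 10 without the genes that passed the detection filter only through NG2 control.

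Myelin genes lay higher in Nestin control, although few passed the threshold. Of 16 measured, 3 were called higher and 0 lower (18.8%, against 3.47% of all genes). Of the 16, 15 differences were positive, 13 genes did not overlap between the groups (24.5% of all genes did not), and the median was 1.13. The summed level was 16.04, 16.57 and 16.38 in Nestin control and 15.46, 15.69 and 15.46 in NG2 control, without overlap. Mal, a proteolipid of the myelin membrane, read 10.78, 11.79 and 11.31 in Nestin control and 9.58, 9.95 and 9.42 in NG2 control, a difference of 1.64 ± 0.39 (SE; adjusted p = 0.0327). Ugt8a, the enzyme that makes galactosylceramide, differed by 1.13 ± 0.28 and Cldn11, the tight-junction claudin of myelin, by 0.75 ± 0.18 (SE; adjusted p = 0.0416 and 0.0372). Mog, the myelin oligodendrocyte glycoprotein, was at 1.65 (adjusted p = 0.144), Opalin at 1.56 (0.341), Cnp, a myelin phosphodiesterase, at 1.14 (0.227) and Mbp, myelin basic protein, at 0.32 (0.926), each with groups apart. The value of Mbp is that of its probe with the highest mean, and the mean of its probes gave 1.06.

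The number of myelin genes called differed between fits. In the 6 control arrays alone 12 of 14 passed, and with slide as a block 0 of 16, at list medians of 1.18 and 1.09. Of the 3 calls, 0 held in every leave-one-out fit. Mal passed only without Nestin control 1, and was at 1.40 without Nestin control 2, 1.63 without Nestin control 3, 1.61 without NG2 control 1, 1.79 without NG2 control 2 and 1.53 without NG2 control 3. Ugt8a missed the threshold without Nestin control 1 (1.09), Nestin control 2 (0.86), NG2 control 2 (1.07) or NG2 control 3 (1.01). Cldn11 missed it in all 6 such fits, at 0.81, 0.64 and 0.78 without Nestin controls 1, 2 and 3, and at 0.64, 0.83 and 0.78 without NG2 controls 1, 2 and 3.

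Oligodendrocyte progenitor genes were split. Of 14 measured, 1 was higher and 1 lower in Nestin control (14.3%, against 3.47% of all genes), with a median of 0.09. Bcas1, which marks newly formed myelinating cells, read 13.55, 14.03 and 13.70 in Nestin control and 13.09, 12.81 and 12.97 in NG2 control, a difference of 0.80 ± 0.19 (SE; adjusted p = 0.0294). Without Nestin control 1 it kept the call, and it missed the threshold at 0.67 and 0.83 without Nestin controls 2 and 3, and at 0.87, 0.73 and 0.81 without NG2 controls 1, 2 and 3. Lhfpl3, a membrane protein of progenitors, differed by -1.38 ± 0.29 (SE; adjusted p = 0.0164), and missed it without Nestin control 1 (-1.32), Nestin control 3 (-1.36), NG2 control 1 (-1.30) or NG2 control 2 (-1.25). Enpp6 was at 1.16 (adjusted p = 0.527). Cspg4, which encodes NG2 and whose sequences drive the Cre of the NG2-creERTM model, read 6.88, 7.22 and 7.16 in Nestin control and 6.5, 6.89 and 6.89 in NG2 control. These overlapped, at 0.33 ± 0.47 (SE; adjusted p = 0.871), and the estimate was -0.022 with slide as a block. Nes, which encodes nestin, was well above background on 0 of 3 Nestin control and 1 of 3 NG2 control arrays.

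The other glial, vascular and immune cell lists had no calls. Of 17 measured astrocyte genes 0 passed at a median of -0.26, of 12 microglial and macrophage genes 0 at 0.02, and of 13 endothelial genes 0 at 0.10. Gfap, the intermediate filament of reactive astrocytes, was at -0.43 (adjusted p = 0.839) with overlapping groups. Of 12 genes of meninges and fibroblasts 0 passed, though 10 were negative at a median of -0.996. Their summed level was 12.65, 12.32 and 13.41 in Nestin control and 13.81, 13.79 and 13.74 in NG2 control, so that the pieces of NG2 control brain were all higher. The part of meninges in the other results was not tested. Aqp1, a water channel of the choroid plexus, was the 1 called gene of 7 in the choroid plexus list (14.3%, against 3.47% of all genes). It read 5.12, 6.24 and 4.98 in Nestin control and 10.40, 9.16 and 9.91 in NG2 control, a difference of -4.38 ± 0.86 (SE; adjusted p = 0.01), and missed the threshold without Nestin control 1 (-4.23), Nestin control 3 (-4.16), NG2 control 1 (-4.11) or NG2 control 3 (-4.34). In all, 23 of the 42 lists had no call.

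The largest excesses in Nestin control belonged to genes of no single list. Trbv13-2, a variable segment of the T-cell receptor beta chain, read 10.70, 9.72 and 10.89 in Nestin control and 6.07, 5.92 and 6.39 in NG2 control, a difference of 4.31 ± 0.58 (SE; adjusted p = 0.000603). Cd6, a surface receptor of T cells, read 8.85, 8.98 and 8.60 in Nestin control and was well above background on no NG2 control array, at least 10.8-fold higher (adjusted p = 2.76e-07). Both separated the groups completely. Cd3e, a subunit of the T-cell receptor complex, was well above background on 1 of 3 arrays in each group and differed by 0.29 (adjusted p = 0.779). The list of lymphocytes and neutrophils had 0 calls among 4 measured genes, with summed levels of 7.17, 10.13 and 7.17 in Nestin control and 7.38, 9.26 and 8.45 in NG2 control. These overlapped and followed neither Trbv13-2 nor Cd6.

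Further excesses were spread over enzymes, transporters and muscle-type proteins. Slc23a3, a member of the ascorbate transporter family, was well above background on 0 of 3 NG2 control arrays and at least 8.43-fold higher (adjusted p = 2.71e-05). The RIKEN gene 9130024F11Rik was higher by 3.34 ± 0.49 (SE; adjusted p = 0.00131). Myl4, an atrial myosin light chain, read 10.71, 10.60 and 10.52 in Nestin control and 7.51, 8.29 and 7.57 in NG2 control, a difference of 2.82 ± 0.25 (SE; adjusted p = 9.63e-06). Its group SDs were 0.09 in Nestin control and 0.44 in NG2 control. Aldh3a1, an aldehyde dehydrogenase, was higher by 2.57 ± 0.21, and Glt8d2, a glycosyltransferase family member, by 2.55 ± 0.19 (SE; adjusted p = 4.92e-06 and 2.36e-06). Tnnc1, the troponin C of slow and cardiac muscle, was higher by 2.48 ± 0.38, and Igfn1, an immunoglobulin and fibronectin domain protein of muscle, by 2.32 ± 0.27 (SE; adjusted p = 0.0018 and 0.000181).

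Regulators of transcription and signalling were also among the 15 largest excesses. Onecut2, a homeodomain factor, was higher by 2.55 ± 0.43 and Ldb2, a cofactor of LIM homeodomain proteins, by 2.37 ± 0.42 (SE; adjusted p = 0.00378 and 0.00531). Rspo2, a secreted enhancer of Wnt signalling, was higher by 2.34 ± 0.24 (SE; adjusted p = 5.57e-05), while Lgr5, a receptor for R-spondins, was lower, at -4.44 ± 0.71 (SE; adjusted p = 0.00227). The levels of Lgr5 were 5.92, 5.91 and 6.49 in Nestin control and 10.93, 10.07 and 10.62 in NG2 control, so the ligand and the receptor differed in opposite directions. Kcnk4, a leak potassium channel, read 8.23, 8.34 and 8.60 in Nestin control and 5.81, 5.90 and 5.99 in NG2 control, a difference of 2.49 ± 0.18 (SE; adjusted p = 1.84e-06).

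**Figure D4:**
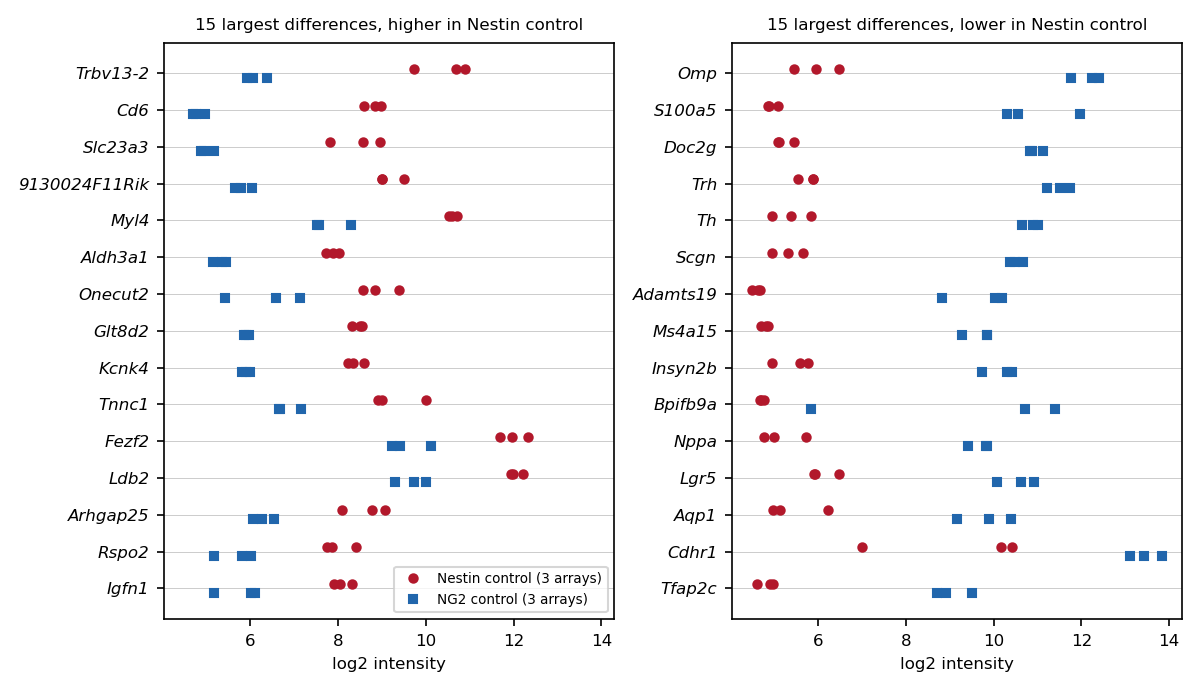
Log2 intensity (x axis) of the 15 genes with the largest positive differences (left) and the 15 with the largest negative ones (right) on the 3 Nestin control arrays (red circles) and the 3 NG2 control arrays (blue squares). The genes were chosen among called genes whose groups did not overlap, so the groups are apart for all genes shown. Cdhr1 on Nestin control 3 (7.01) lies below its own group, and Bpifb9a on NG2 control 1 (5.83) lies close to Nestin control.

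The remaining large deficits in Nestin control had mixed roles. Nppa, the precursor of atrial natriuretic peptide, read 5.72, 4.99 and 4.76 in Nestin control and 9.42, 9.83 and 9.86 in NG2 control, a difference of -4.55 ± 0.28 (SE; adjusted p = 2.76e-07). Tfap2c, an AP-2 transcription factor, was at least 12.4-fold lower, Ms4a15, a membrane protein of the MS4A family, at least 19.0-fold lower, and Adamts19, a secreted metalloprotease, at least 19.2-fold lower (adjusted p = 2.78e-07, 4.84e-09 and 0.000526). All 3 were well above background on every NG2 control array and on no Nestin control array. Insyn2b, of a family of inhibitory synapse proteins, differed by -4.71 ± 1.15 (SE; adjusted p = 0.0383). It missed the threshold whichever array was left out, from -4.49 without Nestin control 3, -4.59 without NG2 control 3, -4.66 without NG2 control 1, -4.80 without Nestin control 1 and -4.91 without Nestin control 2 to -4.95 without NG2 control 2. Bpifb9a, a secreted BPI-fold protein, read 5.83 on NG2 control 1 beside 11.41 and 10.71 on the other NG2 controls, and was well above background on no Nestin control array. It was at least 14.96-fold lower (adjusted p = 0.0152), and missed the threshold without Nestin control 1, 2 or 3 (fitted differences of -4.61, -4.62 and -4.66).

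Some named genes were well above background on only some arrays of their dim group. In Nestin control this was 2 of 3 arrays for Th, Scgn, Insyn2b, Aqp1, Frzb, Sp9, Shisa3 and Igfbpl1, and 1 of 3 for Nppa and Sema3c. In NG2 control it was 2 of 3 for Rspo2, Igfn1, Maf, Emx1 and Cacna1b, and 1 of 3 for Aldh3a1. Their differences are the fitted values. The detection filter was passed only through Nestin control by Cd6, Slc23a3, Aldh3a1, Rspo2, Emx1 and Cacna1b. It was passed only through NG2 control by Nppa, Scgn, Prss56, Sp9, Sema3c and Nxph4, as by S100a5, Doc2g, Th, Tbx21, Eomes, Slc6a3, Ms4a15 and Bpifb9a.

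Of 48 measured sodium, potassium and calcium channel genes, 4 were higher and 2 lower in Nestin control (12.5%, against 3.47% of all genes), with a median of 0.24. Cacna1b, 1 of these, passed the detection filter only through Nestin control, and the count was 5 of 45 without such genes. Kcnip4, a potassium channel partner, read 9.88, 10.03 and 10.16 in Nestin control and 8.82, 8.32 and 7.86 in NG2 control, a difference of 1.69 ± 0.29 (SE; adjusted p = 0.00416). It was the 1 channel gene that passed with slide as a block. Scn8a, a neuronal sodium channel, was higher by 1.26 ± 0.26, Kcnj9, an inward rectifier, by 1.13 ± 0.25, and Cacna1b, the N-type calcium channel, by 0.99 ± 0.22 (SE; adjusted p = 0.015, 0.0213 and 0.0217). Cacng5, a regulator of AMPA receptors, differed by -3.40 ± 0.72 and Kcnab3, a potassium channel beta subunit, by -1.37 ± 0.27 (SE; adjusted p = 0.0166 and 0.0107). Of 26 glutamate and GABA receptor subunits 1 passed: Gabbr2, a GABA-B receptor subunit, was higher by 1.68 ± 0.22 (SE; adjusted p = 0.000535). This was 3.85% of the receptor genes, near the 3.47% of all genes, and so no result about receptors.

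Of the channel calls, that of Kcnip4 held with each array left out (1.45 to 1.94), and the others did not. Scn8a missed the threshold without Nestin control 2 (1.23), Nestin control 3 (1.20), NG2 control 2 (1.18) or NG2 control 3 (1.22). Kcnj9 missed it without Nestin control 1 (1.14), Nestin control 2 (0.86), NG2 control 1 (1.15) or NG2 control 3 (1.02). Cacna1b missed it without Nestin control 3 (0.90), NG2 control 1 (0.81) or NG2 control 2 (0.96). Cacng5 passed only without NG2 control 2, and was at -3.46, -3.49 and -3.23 without Nestin controls 1, 2 and 3 and at -3.37 and -3.21 without NG2 controls 1 and 3. Kcnab3 missed it without Nestin control 2 (-1.22) and NG2 control 3 (-1.27).

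Signalling and growth lists held at most 2 calls each. Of 32 axon guidance genes 2 were lower (6.25%, against 3.47% of all genes): Sema3c, a secreted semaphorin, at -1.70 ± 0.23, and Epha3, an ephrin receptor, at -2.06 ± 0.48 (SE; adjusted p = 0.000623 and 0.0275). Sema3c passed the detection filter only through NG2 control, and the count was 1 of 30 without such genes. Epha3 passed only without NG2 control 2, and was at -2.24, -2.10 and -1.86 without Nestin controls 1, 2 and 3 and at -1.90 and -1.79 without NG2 controls 1 and 3. Of 26 genes of Wnt, Notch and Hedgehog signalling (7.69% called) 1 was higher, Dkk3, a Dickkopf family member, at 1.70 ± 0.32 (SE; adjusted p = 0.00774), and 1 lower, Frzb. Of 11 glucocorticoid response genes (18.2% called), Zbtb16, a zinc-finger factor, was higher by 1.46 ± 0.27 and Cdkn1a, the cell-cycle inhibitor p21, lower, at -1.54 ± 0.29 (SE; adjusted p = 0.00707 and 0.00731). Zbtb16 missed the threshold without NG2 control 3 (1.24). Of 13 mitosis genes (15.4% called), Cenpa, a centromere histone, was higher by 1.29 ± 0.26 and Bub1b, a checkpoint kinase, lower, at -1.38 ± 0.33 (SE; adjusted p = 0.0118 and 0.0372), so the list showed no common direction. Cenpa missed it without Nestin control 1 (1.16), NG2 control 1 (1.18) or NG2 control 3 (1.16), and Bub1b without Nestin control 1 (-1.41), Nestin control 3 (-1.12), NG2 control 1 (-1.32) or NG2 control 3 (-1.08). Of 18 DNA replication genes and 15 immediate early genes 0 passed, with medians of 0.06 and 0.13.

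Slide and group overlapped in part, and slide 3 alone held both groups, with 1 array of each. All 414 called genes had the same sign in Nestin control 3 minus NG2 control 3, both on slide 3, as in Nestin controls 1 and 2 on slide 1 minus NG2 controls 1 and 2 on slide 2. The median of the genes called higher was 1.41 within slide 3 and 1.30 across slides 1 and 2, and that of the genes called lower was -1.93 and -1.58. The 2 differences lay within 1 unit of each other for 370 of the 414 genes. The same arrays chose the genes, so this describes the sizes only. Single genes within slide 3 were at -5.93 (Omp), -5.42 (Doc2g), -5.17 (Th), 2.56 (Fezf2), 3.84 (Cd6) and 1.89 (Mal). Other genes lay further from their difference over all arrays. Cdhr1 was at -6.42 within slide 3 and -4.26 over all arrays, Bpifb9a at -5.94 and -4.60, S100a5 at -7.09 and -6.00, and Onecut2 at 1.43 and 2.55. With slide as a fixed block in the fit to all arrays, 85 genes passed, 23 higher and 62 lower in Nestin control. The share of higher ones was then 27.1%, against 48.8% without the block, and 8 of the 15 largest deficits and 7 of the 15 largest excesses remained past the threshold. Of these deficits, S100a5, Doc2g, Th, Scgn, Ms4a15 and Nppa passed the detection filter only through NG2 control. Of the excesses, Cd6, Slc23a3 and Aldh3a1 passed it only through Nestin control. The calls of these genes are descriptions and are no support for the counts.

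**Figure D5:**
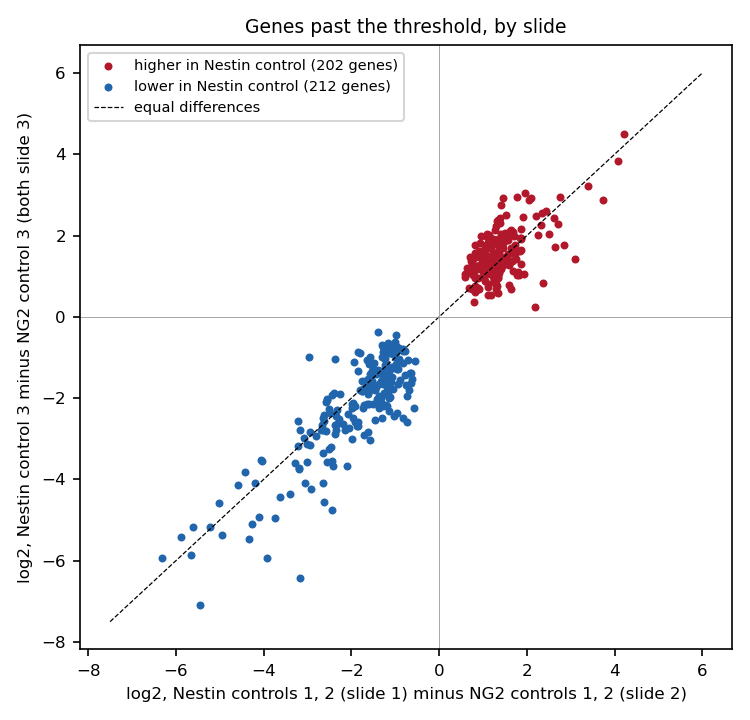
Difference within slide 3 (y axis, log2, Nestin control 3 minus NG2 control 3) against the difference between Nestin controls 1 and 2 on slide 1 and NG2 controls 1 and 2 on slide 2 (x axis) for the 414 called genes. The dashed line marks equal differences, and all genes lie in the quadrants of equal sign.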

How the data were processed

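Total RNA of flash-frozen brain tissue was hybridised to single-colour Illumina mouse BeadChips with 45281 probes, per the labels' protocols and the deposited table. The authors deposited non-normalized intensity values with a detection p-value for each probe, per the file headers. No source used here says whether background had been subtracted from them. The authors also deposited a processed table, taken as log2 values from its range (column medians of 5.286 to 5.306), whose normalization and reference are unknown. Each of its columns correlated best with its own array, at 0.9999849 to 0.9999858 with the normalized values used here. The calls from that table are thus no independent check.

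The intensities were corrected and quantile normalized with neqc of limma 3.58.1 in R 4.3.3 (offset 16, negative controls inferred from the detection p-values). The filter kept the 23904 probes whose detection p was under 0.05 on 3 or more of the 13 arrays. The platform's probe table gave gene names: 1 symbol for 32093 probes, several for 16, which were set aside, and none for 13172. By Entrez number 32035 probes matched a RefSeq gene, and 0 symbols changed. The named probe with the highest mean stood for each gene, which gave 11927 genes. Among 4680 genes with several probes, 0 had probes called in opposite directions. The size of a difference could still depend on the probe. With the mean of a gene's probes, Lgr5 was at -2.99, Kcnk4 at 1.49, Sox4 at -1.02 and Shisa3 at -1.32, smaller than reported. Meis2 at -2.27, Dkk3 at 2.59 and Mbp at 1.06 were larger, so such shifts went both ways.

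Limma fitted 1 mean for each group over all 13 arrays (9 residual and 4.67 prior degrees of freedom, intensity trend). P-values were adjusted by Benjamini-Hochberg over all genes, with a threshold of 0.05. The 4 groups had a common estimate of the spread. The number of arrays limits the precision, and the median SE was 0.284. The fit was tested on simulated data with known changes.

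The members and the 42 gene lists (710 genes, 540 measured) were chosen with earlier results of these data known, so no list count is independent support. Genes named were the 15 largest positive and 15 largest negative differences among called genes whose groups did not overlap, the 6 largest differences of each list, and a few fixed genes. Nasal and homeodomain genes among the closing observations were chosen after their values were seen. Alternatives covered background correction, normalization, filters, probe choice, slide, replicate number and arrays left out. Promoter sequences are from RefSeq (GRCm38.p6). The arrays name no genome build, so no probe coordinates are given. Of the 5 NG2 tumors of the design text, 4 entered the fit and 1 was not analysed here.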

Additional observations from a re-analysis of the deposited data

How the results depend on the processing

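Counts are given as all, higher and lower genes past the threshold in Nestin control, against 414, 202 and 212 in the fit reported. Scaling to the median gave 286, 132 and 154, and testing every probe 649, 322 and 327. The 6 control arrays alone gave 1022, 518 and 504, array weights 828, 419 and 409, slide as a fixed block 85, 23 and 62, and the same block in the 6 control arrays, chosen after seeing the data, 149, 39 and 110. Leaving out 1 control array gave 187 to 257, 89 to 127 and 94 to 140. Other alternatives gave 315 to 519 in all, with 314 to 414 of the 414 genes shared, the authors' processed table calling 418. The replicate numbers did not pair the samples (correlations of same-numbered deviations of 0.0376, -0.154 and -0.00793), and a fit with the replicate block called 355, of which 329 were shared. Over the single genes named, 2208 values kept their side of the threshold and direction, 217 lost a call, 78 gained one and 1 changed sign: Cspg4, at 0.33, was -0.022 with slide as a fixed block. The size of large differences could shrink without background correction. Omp was then at -4.53, Trh at -3.96, Th at -3.47 and Cd6 at 1.90, all still past the threshold. Calb2, well above background in both groups, was at -3.94. The cause of these shifts was not tested. Genes near background in 1 group are limited to bounds, and no slide held more than 1 array of both control groups.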

Other observations

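Replication-dependent histone genes, looked at after their values were seen, were mostly lower in Nestin control. Of 44 measured, 8 were called lower and 0 higher, where 1.78% of all genes were called lower and 1.69% higher. Among the 44, 42 differences were negative, and the median was -0.90 with a range of -1.69 to 0.04. Their mean level was 7.61, 7.32 and 7.33 in Nestin control and 8.07, 8.64 and 8.27 in NG2 control, so the array means did not overlap. The genes are near-identical copies, and probes of 1 member may read others. The lists of DNA replication genes and mitosis genes did not share this direction, with medians of 0.06 and 0.05.

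Meis1 and Pbx3, homeodomain factors of the TALE class that were named after their values were seen, were lower in Nestin control. Meis1 read 7.19, 7.58 and 6.78 in Nestin control and 10.67, 9.96 and 11.02 in NG2 control, a difference of -3.37 ± 0.44 (SE; adjusted p = 0.000526). Pbx3 read 6.46, 7.50 and 6.66 in Nestin control and 10.39, 9.46 and 9.50 in NG2 control, a difference of -2.91 ± 0.40 (SE; adjusted p = 0.000782). Both separated the groups, and Meis1 also passed with slide as a block (-4.46; adjusted p = 0.00501).

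Scgb1c1, Cyp2a5 and Bpifb9a, named after their values were seen, were lower on NG2 control 1 than on the other NG2 controls. All 3 passed the detection filter only through NG2 control, so their p-values are descriptions. Scgb1c1, a secretoglobin, read 4.71, 4.94 and 5.23 in Nestin control and 6.51, 10.61 and 10.19 in NG2 control, at least 12.9-fold lower in Nestin control (adjusted p = 0.00508), and its fitted difference was -5.47 without NG2 control 1 (adjusted p = 1.7e-07). Cyp2a5, a cytochrome P450 that is abundant in the olfactory mucosa of the mouse, read 5.40, 6.08 and 5.42 in Nestin control and 6.55, 10.19 and 9.99 in NG2 control, a difference of -3.27 ± 0.68 (SE; adjusted p = 0.014). It was well above background on 1 of 3 Nestin control arrays, and missed the threshold without Nestin control 1 (-3.17), Nestin control 3 (-3.18), NG2 control 2 (-2.65) or NG2 control 3 (-2.74). Without NG2 control 1 it was at -4.47 (adjusted p = 1.36e-06). Bpifb9a had the same low reading on NG2 control 1. Omp, Doc2g and Th were as high on NG2 control 1 (12.25, 10.83 and 10.91) as on the other NG2 controls.

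H2-Ab1, a subunit of the class II antigen-presenting molecule, was at -1.68 (adjusted p = 0.0556), with 6.40, 5.65 and 6.63 in Nestin control and 7.40, 7.94 and 8.39 in NG2 control. Of 12 measured genes of antigen presentation 0 passed and 11 were negative, and of 12 interferon response genes 0 passed and 12 were negative, at medians of -0.40 and -0.26. Of 22 oxidative phosphorylation subunits 0 passed and 19 were negative, at a median of -0.30. Of 8 cholesterol synthesis genes 0 passed and 7 were positive, at a median of 0.47. Of 4 genes known to vary between mouse strains 0 passed, at a median of 0.49.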
